A study of Homo sapiens with 6 samples.

Results

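ATP-binding cassette (ABC) transporters, organic ion transporters and aquaporins were examined together in LNCaP prostate cancer cells with and without PACT. The members were the protein-coding genes whose symbol begins with ABCA to ABCG, SLC22A, SLCO or AQP followed by a number. This name rule found 91 of the 29806 gene numbers counted, namely 45 ABC genes, 21 SLC22A genes, 11 SLCO genes and 14 AQP genes. The 45 ABC genes were 12 of ABCA, 9 of ABCB, 11 of ABCC, 4 of ABCD, 1 of ABCE, 3 of ABCF and 5 of ABCG. A further 15 rows with like names were non-coding RNAs or pseudogenes and were not members.

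ABC proteins use ATP to move lipids, drugs, conjugates or peptides across membranes, and those of the ABCE and ABCF subfamilies lack membrane segments and act on ribosomes. SLC22A and SLCO proteins carry organic cations, organic anions, carnitine, hormones and drugs across the plasma membrane. Aquaporins are channels for water, and the aquaglyceroporins among them also pass glycerol. In the prostate, these families are known for drug efflux, for the uptake of steroid conjugates and cations, and for export of cholesterol.

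LNCaP is an androgen-responsive human prostate cancer cell line, and PACT is the protein encoded by PRKRA. The 2 groups were wild type LNCaP parental cells and LNCaP PACT CRISPR knockout (PACT KO) cells, with 3 dishes of each, and the labels name no other treatment. Both were kept in RPMI-1640 with 10% serum, and RNA was taken 48 h after plating, at about 80% confluency. Every PACT KO dish held cells of 1 clone, so the spread between replicates is that between dishes of one line, and a difference of this clone cannot be told apart from one of the knockout.

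Each library held 19930060 to 24940838 counts on genes, and the members held 0.188% to 0.196% of them. PRKRA had 882, 809 and 866 counts in LNCaP parental cells versus 291, 331 and 243 in PACT KO cells, a log2 fold change (log2FC) of -1.57 with a standard error (SE) of 0.07. All 9 luminal prostate markers were detected, with a summed level of 3697 to 3731 CPM, counts scaled to the size of the library, in LNCaP parental cells versus 3741 to 3786 CPM in PACT KO cells, though KLK3 and KLK2 among them fell by more than 1.5-fold. Some markers listed for other cells were at 0 in every library. They were KRT5 of basal cells, COL1A2 of stroma, CD3E of T cells, INSM1 of neuroendocrine cells and PECAM1 of endothelium. Others on the same lists were expressed. COL1A1 of stroma had 623, 650 and 732 counts in LNCaP parental cells versus 1065, 936 and 878 in PACT KO cells (log2FC 0.52). VWF of endothelium had 613, 537 and 602 versus 437, 380 and 335 (log2FC -0.61). SYP of neuroendocrine cells had 47, 33 and 43 versus 38, 41 and 61. Of the whole lists, 2 of 3 stroma markers, 1 of 2 of endothelium, 1 of 3 neuroendocrine, 1 of 3 basal and none of 2 leukocyte markers were detected. The summed level of the stroma list was 27.4 to 30.2 CPM in LNCaP parental cells versus 38.6 to 43.7 CPM in PACT KO cells, that of endothelium 24.3 to 27.0 versus 15.6 to 17.7 CPM, and that of the neuroendocrine list 1.57 to 2.07 versus 1.54 to 3.02 CPM. The basal list was at no more than 0.185 CPM in any library. The part of these markers in the results was not tested.

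Which members were detected was asked first. A gene was taken as detected in a group when at least 1 of its libraries had more than 3 counts. Over the total counts of each library, before the scaling used for other levels, 3 counts corresponded to 0.120 to 0.151 CPM. By this rule for detection 52 members were detected in LNCaP parental cells versus 54 in PACT KO cells. Of the 91, 49 were detected in both groups, 3 in LNCaP parental cells alone, 5 in PACT KO cells alone and 34 in neither, so that 57 (62.6%) were detected in at least 1 group. The 8 detected in one group alone had at most 7 counts in any library, except AQP3 with 90 to 125 counts in LNCaP parental cells. Limits and levels of this kind cover counting error only.

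By family, members were detected in at least 1 group for 7 of 12 ABCA, 7 of 9 ABCB, 8 of 11 ABCC, 3 of 4 ABCD and 3 of 5 ABCG genes, and for the single ABCE gene and all 3 ABCF genes. The organic ion transporters divided unevenly, with 14 of 21 SLC22A genes (66.7%) but 4 of 11 SLCO genes (36.4%) detected. Among aquaporins 7 of 14 were detected. There were 20 members with 0 counts in all 6 libraries. They included ABCB1, the P-glycoprotein drug pump, ABCG5 and ABCG8, which export plant sterols, ABCC9, a regulator of potassium channels, and SLC22A6 and SLC22A8, the organic anion transporters of the kidney. At this depth a count of 0 allows up to 3 counts per library, so their absence is not shown.

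**Figure D1:**
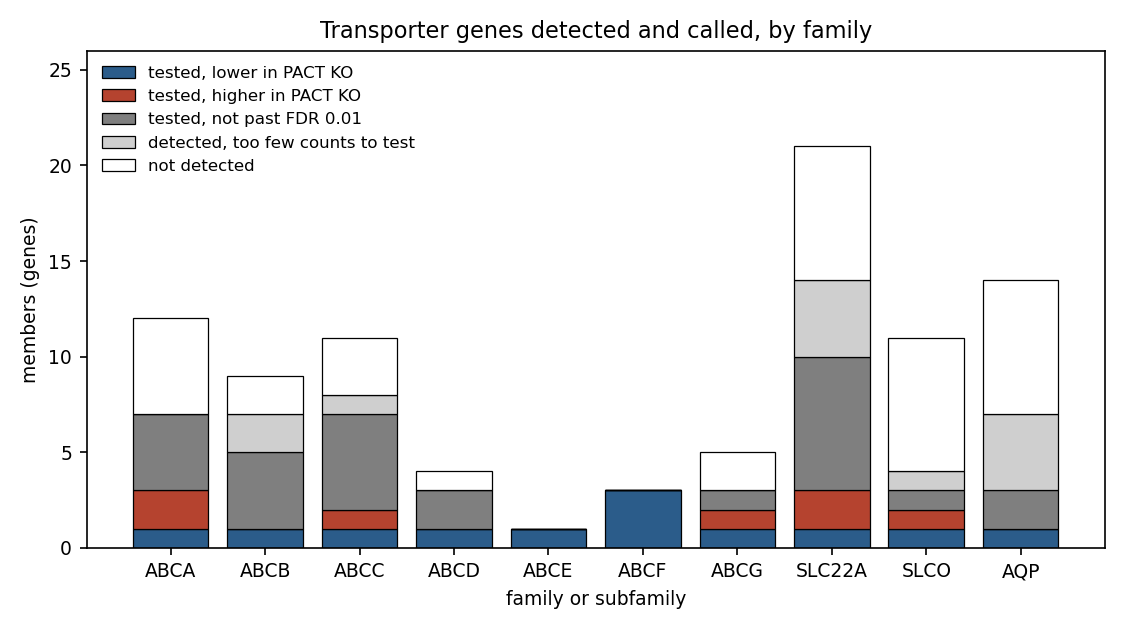
Members of each family by detection and call. The horizontal axis gives the family and the vertical axis the number of genes, stacked as lower in PACT KO, higher in PACT KO, tested without passing an FDR of 0.01, detected with too few counts to test, and not detected. SLC22A had the most members (21) and the most tested (10), and most SLCO members (7 of 11) were not detected.

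The 3 LNCaP parental libraries were then compared with the 3 PACT KO libraries by edgeR's quasi-likelihood test, with Benjamini-Hochberg adjustment over all genes tested. Enough counts for a test were present for 45 of the 57 detected members. Of these 45, 12 (26.7%) were lower in PACT KO cells at a false discovery rate (FDR) under 0.01 and 7 (15.6%) were higher. Over all 14462 genes tested, 18.8% were lower and 15.3% higher, 2726 and 2214 genes, a balance that turned to 2286 lower and 2731 higher when libraries were scaled by total counts. Among the lower members were ABCA12, ABCB6, ABCC4, ABCE1, ABCF1, ABCF2, ABCF3, ABCG2, AQP3, SLC22A3 and SLCO4A1. The higher members were ABCA1, ABCA5, ABCC8, ABCG1, SLC22A17, SLC22A31 and SLCO5A1. In bulk RNA, fewer cells with a transcript and less of it per cell cannot be told apart. The libraries of the groups did not overlap for 26 members (57.8%), beside 52.2% of all genes tested. The median log2FC of the 45 was -0.003, and that of all genes tested was 0.0004.

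A differentially expressed gene (DEG) also had to differ by at least 1.5-fold. The downregulated DEGs were 4 members, AQP3, SLC22A3, ABCG2 and ABCA12, and the upregulated DEGs were 2, SLC22A31 and ABCC8. Together they were 13.3% of the 45, where DEGs were 5.72% of all genes tested (2.65% downregulated and 3.07% upregulated). AQP3 and SLC22A3 passed the filter on low counts through the LNCaP parental libraries alone. They were therefore tested through their LNCaP parental level, and at their PACT KO level in both groups would not have been tested. ABCG2 reached that filter in 3 LNCaP parental libraries and 2 PACT KO libraries. With at least 10 counts asked of every library, AQP3, SLC22A3 and ABCG2 were not tested and 1 downregulated DEG was left. With a 2-fold threshold, or a test of a change beyond 1.5-fold, neither upregulated member was called.

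**Figure D2:**
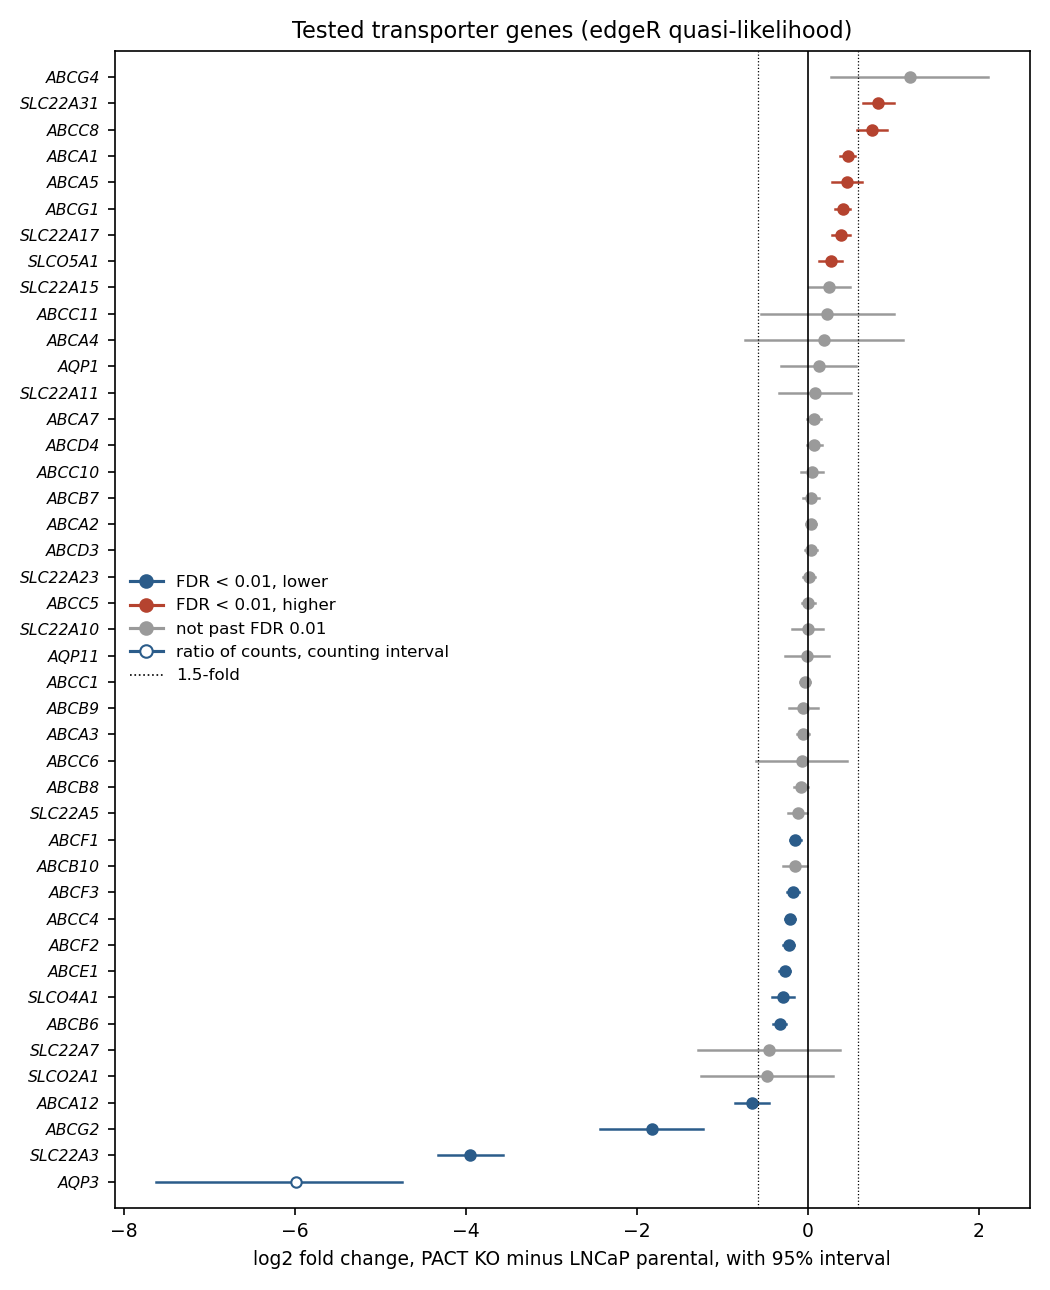
The log2 fold change of 43 of the 45 tested members, PACT KO minus LNCaP parental, on the horizontal axis, with 95% intervals as bars and the members in order of change on the vertical axis. Colours give the FDR call, dotted lines 1.5-fold, and the open circle for AQP3 its ratio of summed counts with the counting interval. AQP3, SLC22A3 and ABCG2 lie far below the rest, while the members in grey did not pass.

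Of the aquaporins, AQP3, an aquaglyceroporin of epithelia, was the one called. Its counts were 102, 90 and 125 in LNCaP parental cells versus 3, 0 and 2 in PACT KO cells. The groups were far apart, with no PACT KO library above the level at which a gene was taken as detected. The ratio of summed counts was 63.5 (95% exact Poisson interval 26.9 to 197), and set against a floor of 3 counts in each PACT KO library it was 34.9. The FDR of the edgeR fit was 2.16e-18. Chromosome 9 carries AQP3 at 33441160 to 33447593 (GRCh38). Its nearest tested neighbours there were NFX1, with a log2FC of -0.04, and NOL6, with -0.23. NFX1 did not pass (FDR = 0.326), while NOL6 was lower (FDR = 6.35e-08) without reaching 1.5-fold.

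SLC22A3, the organic cation transporter OCT3 that takes up monoamines and cationic drugs, was the other member nearly lost. Counts of 133, 134 and 155 in LNCaP parental cells stood against 10, 10 and 7 in PACT KO cells, or 5.86, 6.20 and 6.26 CPM against 0.405, 0.411 and 0.346 CPM. PACT KO cells kept 6.47% of the LNCaP parental level (log2FC -3.95, SE 0.19, FDR = 7.59e-20), and the libraries within a group were close together. SLC22A3 lies on chromosome 6 at 160348378 to 160452577, and its next tested gene was LPAL2, a downregulated DEG (log2FC -0.62, SE 0.12). The next gene tested beyond LPAL2, MAP3K4, had a log2FC of 0.01.

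ABCG2, the breast cancer resistance protein that exports drugs, urate and porphyrins, was a weakly expressed gene that fell. It had 43, 29 and 35 counts in LNCaP parental cells versus 13, 8 and 9 in PACT KO cells. Every PACT KO library was below every LNCaP parental one, and the log2FC was -1.83 (SE 0.30, FDR = 3.23e-06). Its nearest tested neighbours on chromosome 4, PKD2 and PPM1K, had log2FC values of 0.15 and 0.13 and did not pass.

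ABCA12, a lipid transporter best known for loading lipid into the lamellar granules of skin, fell less. The levels were 10.0, 9.39 and 10.4 CPM in LNCaP parental cells versus 6.76, 6.33 and 5.74 CPM in PACT KO cells, without overlap. Its log2FC of -0.66 (SE 0.10, FDR = 9.08e-07) was just past the 1.5-fold line, and the 95% interval of -0.86 to -0.46 contained that line.

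Both upregulated DEGs changed by less than 2-fold. SLC22A31, an orphan member of its family, had 194, 193 and 230 counts in LNCaP parental cells versus 410, 350 and 333 in PACT KO cells, a log2FC of 0.82 (SE 0.09, FDR = 7.52e-10). ABCC8, the sulphonylurea receptor that regulates ATP-sensitive potassium channels, had 210, 208 and 258 counts against 413, 382 and 341, a log2FC of 0.75 (SE 0.09, FDR = 2.81e-09). For both, every PACT KO library was above every LNCaP parental one. KCNJ11, which encodes the pore of that channel and neighbours ABCC8 on chromosome 11 (17392498 to 17476845), had a log2FC of 0.14 (SE 0.09, FDR = 0.194).

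**Figure D3:**
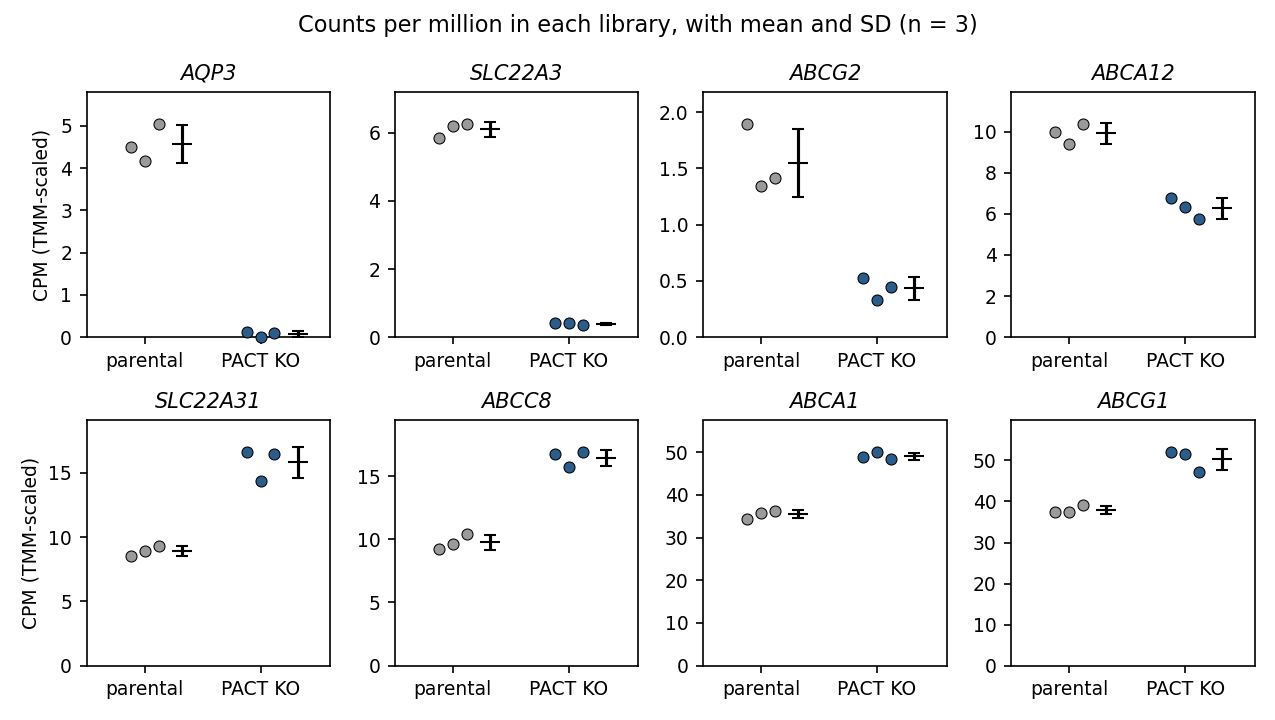
Level of 8 members in each of the 6 libraries, in CPM scaled by TMM on a vertical axis that starts at 0. Circles are libraries, grey for LNCaP parental and blue for PACT KO, and the bar beside them is the mean with its SD (n = 3). In each of the 8 panels the groups are separate, with PACT KO below LNCaP parental for AQP3, SLC22A3, ABCG2 and ABCA12 and above it for SLC22A31, ABCC8, ABCA1 and ABCG1.

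The DNA before the first base of 4 of the 6 DEGs is shown to let their start regions be compared, since the DEGs are the members the comparison turns on. It was taken from RefSeq promoters of GRCh38.p14, 250 bases long and, where several starts are listed, those before the most upstream one. For AQP3 the last 41 bases were left out because another transcript of it starts there. Capitals mark the GC box GGGCGG and the steroid receptor motif AGAACA on either strand, and all 4 genes are on the minus strand. The regions are chr9:33447635-33447843 for AQP3, chr4:88231627-88231876 for ABCG2, chr2:215138627-215138876 for ABCA12 and chr16:89201679-89201928 for SLC22A31.
AQP3: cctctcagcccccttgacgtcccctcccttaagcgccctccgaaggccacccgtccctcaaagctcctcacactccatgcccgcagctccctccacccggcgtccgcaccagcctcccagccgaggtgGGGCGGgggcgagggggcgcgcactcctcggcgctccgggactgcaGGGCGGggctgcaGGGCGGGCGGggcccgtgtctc
ABCG2: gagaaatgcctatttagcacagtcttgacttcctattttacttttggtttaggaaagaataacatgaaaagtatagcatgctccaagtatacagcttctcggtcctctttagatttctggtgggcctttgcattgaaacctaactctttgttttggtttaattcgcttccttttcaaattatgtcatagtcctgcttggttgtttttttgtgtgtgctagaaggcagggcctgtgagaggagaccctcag
ABCA12: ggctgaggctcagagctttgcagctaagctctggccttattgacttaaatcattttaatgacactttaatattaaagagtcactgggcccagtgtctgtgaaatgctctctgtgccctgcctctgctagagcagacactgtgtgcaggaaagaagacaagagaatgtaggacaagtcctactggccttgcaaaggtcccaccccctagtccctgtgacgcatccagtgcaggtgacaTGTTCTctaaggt
SLC22A31: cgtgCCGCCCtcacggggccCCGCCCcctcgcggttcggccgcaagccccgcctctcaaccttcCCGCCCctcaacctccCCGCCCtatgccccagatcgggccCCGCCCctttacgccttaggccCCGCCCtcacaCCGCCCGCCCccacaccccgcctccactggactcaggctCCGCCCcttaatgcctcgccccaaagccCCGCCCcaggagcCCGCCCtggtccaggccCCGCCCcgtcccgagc

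The start regions of AQP3 and SLC22A31, which moved in opposite directions, were both rich in G and C, at 73.6% and 76.4%, with 23 and 25 CpG dinucleotides in 250 bases. That of AQP3 held 4 GC boxes and, in the bases left out, 1 TATAAA starting 32 bases before the start, and that of SLC22A31 held 12 on the opposite strand, some overlapping. ABCG2 and ABCA12, both downregulated, had 2 and 1 CpG in the windows shown, and ABCA12 had 1 AGAACA, read on the opposite strand. Other starts of these genes were not examined. Of one window from each of 27303 genes, 42.2% held GGGCGG, 12.4% AGAACA, 11.2% TATAAA and 12.2% AGGTCA, a nuclear receptor motif, with both strands searched. Which start LNCaP cells use was not measured, and a match of letters is not a site.

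Promoter sequence was at hand for 67 members. The 32 of them that were tested had a median of 21.0 CpG in the 250 bases, and the 26 that were not detected a median of 3.00, while the median of all 27303 windows was 10.0. Among those that passed, the 9 lower members with a window had a median of 24.0 CpG (range 1 to 42) and the 4 higher members one of 20.5 (range 7 to 42), so the ranges of the lower and higher members overlapped.

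Among the ABC transporters of sterols and lipids, 17 genes in all, 9 were tested, of which 3 rose and 1, ABCA12, fell, so that 44.4% passed in either direction, beside 34.2% of all genes tested. ABCA1 and ABCG1, which load cellular cholesterol onto lipoproteins, rose by similar amounts. ABCA1 had 783, 772 and 900 counts in LNCaP parental cells versus 1206, 1215 and 980 in PACT KO cells, a log2FC of 0.47 (SE 0.04, FDR = 1.28e-11). ABCG1 was at 37.3, 37.4 and 39.0 CPM against 51.9, 51.6 and 47.2 CPM, a log2FC of 0.41 (SE 0.04, FDR = 8.37e-10). Neither reached 1.5-fold, and in both every PACT KO library was above every LNCaP parental one. ABCA5, a lysosomal transporter, was named after its values were seen and rose (log2FC 0.45, SE 0.09), from 12.6 ± 1.28 to 17.4 ± 1.51 CPM (SD, n = 3).

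ABCA2, an endosomal transporter found in many cell types, was the most abundant member by CPM. It had 5369, 5316 and 6192 counts in LNCaP parental cells versus 6238, 5874 and 5212 in PACT KO cells, with a 95% interval of the log2 fold change of -0.02 to 0.10. ABCG4, a relative of ABCG1 named after its values were seen, had 3, 9 and 7 counts against 15, 18 and 11. The groups did not overlap, but its log2FC of 1.19 (SE 0.45, FDR = 0.0300) did not pass, and it had enough counts for the test through the PACT KO libraries alone. With limma-voom in place of edgeR, ABCG4 was called.

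Of 13 ABC efflux pumps for drugs, bile salts and conjugates, 7 were tested and 2 (28.6%) fell, ABCG2 and ABCC4, beside 18.8% of all genes tested. ABCC4, the pump MRP4 that exports cyclic nucleotides and prostaglandins, is a well-expressed gene of prostate cells. It was at 139, 138 and 140 CPM in LNCaP parental cells versus 122, 118 and 119 CPM in PACT KO cells, a log2FC of -0.21 (SE 0.03, FDR = 2.39e-07). The fall was small, to 86.3% of the LNCaP parental level, yet larger than the spread in either group. ABCC1, the pump MRP1 for glutathione conjugates, was at 133 ± 1.5 CPM and 130 ± 1.66 CPM (SD, n = 3), with a 95% interval of the log2FC from -0.09 to 0.03, and did not pass. ABCC4 and ABCC1 were the most abundant of the pumps tested, and ABCG2, the pump that changed most, was at 1.55 CPM in LNCaP parental cells.

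Of the 9 ABC transporters of mitochondria, lysosomes and peroxisomes, 8 were tested and 2 fell, again beside 18.8% of all genes tested. ABCB6, a porphyrin transporter, fell to 79.4% of its LNCaP parental level (log2FC -0.33, SE 0.04, FDR = 3.97e-09). ABCD3, a transporter of peroxisomes, was at 70.2 ± 0.899 and 71.9 ± 2.61 CPM (SD, n = 3; FDR = 0.443), and did not pass. ABCD4, which takes part in the release of cobalamin from lysosomes, and ABCB10, a mitochondrial transporter, had log2FC values of 0.07 (FDR = 0.163) and -0.15 (FDR = 0.0733).

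All 4 soluble ABC proteins of translation were tested and 4 of 4 were lower, where 18.8% of all genes tested were, with a median log2FC of -0.20. ABCE1, which splits ribosomes for recycling, was at 126, 120 and 124 CPM in LNCaP parental cells versus 104, 101 and 102 CPM in PACT KO cells (log2FC -0.27, SE 0.03, FDR = 5.04e-09). ABCF2 had a log2FC of -0.22 (FDR = 3.06e-07), and ABCF3 one of -0.18 (FDR = 2.89e-05). ABCF1, which binds ribosomes at initiation, had the smallest change, a log2FC of -0.15 (FDR = 1.71e-04). For each of the 4 no PACT KO library reached the lowest LNCaP parental one, and PACT KO levels were 83.0% to 90.1% of LNCaP parental levels.

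The SLC22A family gave 10 tested members, of which SLC22A3 fell and SLC22A17 and SLC22A31 rose (3 of 10, beside 34.2% of all genes tested in either direction). Of the cation and carnitine transporters, 7 genes with 4 tested, SLC22A3 was the one that passed. SLC22A5, the carnitine transporter OCTN2, was at 33.8 ± 2.60 and 31.1 ± 0.863 CPM (SD, n = 3), and its libraries overlapped. It was named after its values were seen.

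Among the anion and orphan members of SLC22A, 14 genes with 6 tested, 2 (33.3%) rose, beside 15.3% of all genes tested. SLC22A17, a receptor for lipocalin-bound iron that was named after its values were seen, went from 30.3 ± 1.07 to 39.7 ± 2.21 CPM (SD, n = 3), a log2FC of 0.39 (SE 0.05, FDR = 6.00e-08). SLC22A23, the most abundant of the family and without a settled substrate, was at 82.4 ± 1.88 and 82.8 ± 1.16 CPM. The 95% interval of its log2 fold change was -0.06 to 0.08.

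SLCO proteins take up steroid sulphates, thyroid hormones and bile salts. Of their 11 genes 3 were tested, and of these SLCO4A1 fell and SLCO5A1 rose. That was 66.7% in either direction, beside 34.2% of all genes tested. SLCO4A1 was at 28.1, 26.4 and 28.4 CPM in LNCaP parental cells versus 23.4, 22.9 and 21.1 CPM in PACT KO cells, a log2FC of -0.30 (SE 0.06, FDR = 1.72e-04). A non-coding RNA that shares its name, SLCO4A1-AS2, had 187, 190 and 206 counts against 272, 237 and 232, higher in PACT KO cells (log2FC 0.34, FDR = 0.00285). Since the use of strand in counting is not stated, reads of overlapping genes cannot be told apart. SLCO5A1, whose substrates are not well known, was at 20.7 ± 0.375 and 24.9 ± 0.428 CPM (SD, n = 3; log2FC 0.26, FDR = 8.91e-04). The remaining one, SLCO2A1, a prostaglandin carrier, had 8 to 23 counts in LNCaP parental cells versus 10 to 13 in PACT KO cells, and they overlapped. The liver transporters SLCO1B1 and SLCO1B3, known for the uptake of androgens and drugs, were not detected.

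Besides AQP3, 2 aquaporins were tested and did not pass, so that 33.3% of the aquaporins tested passed, beside 34.2% of all genes tested. AQP1, a water channel, had 35, 24 and 38 counts in LNCaP parental cells versus 43, 33 and 30 in PACT KO cells, and AQP11, a channel of the endoplasmic reticulum, had 116, 81 and 128 against 117, 108 and 98. Both overlapped, with 95% intervals of the log2FC from -0.31 to 0.56 and -0.26 to 0.25, so changes within these intervals are not excluded. AQP7, another aquaglyceroporin, had 7, 11 and 8 counts against 9, 10 and 3, too few to test.

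Summed over each family, the level of ABCG genes was 39.8 ± 0.853 CPM in LNCaP parental versus 51.3 ± 2.72 CPM in PACT KO cells (SD, n = 3), and most of it was ABCG1. AQP genes together were at 11.4 ± 1.40 and 7.01 ± 0.395 CPM, where AQP3 alone accounted for 4.57 CPM in LNCaP parental versus 0.0734 CPM in PACT KO cells. The sum of ABCF genes was 352 ± 5.41 and 310 ± 0.647 CPM, and that of ABCB genes 207 ± 3.64 and 186 ± 1.81 CPM. Sums of ABCA, ABCC, SLC22A and SLCO genes in PACT KO cells were 105%, 96.1%, 105% and 97.7% of those in LNCaP parental cells. The 91 members together stood at 1967 ± 8.87 and 1888 ± 16.5 CPM, or 96.0%.

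Levels of different genes were compared per kilobase of exon, with union exon lengths from GENCODE 29. On this scale ABCF2 and ABCF1 were highest, at 29.9 and 26.1 CPM per kb in LNCaP parental cells, and ABCA2 followed at 21.2. ABCA2, whose gene model spans 11514 exonic bases, was thus below the much shorter ABCF2 and ABCF1 although it led in CPM. ABCF2, ABCF1, ABCA2 and ABCF3 held ranks 1 to 4 in both groups, while ABCF3, at 20.9 ± 0.400, and ABCA2, at 21.2 ± 0.603 CPM per kb in LNCaP parental cells, did not differ beyond their spread. SLC22A3 moved from rank 29 to rank 39, at 1.82 and 0.116 CPM per kb. SLC22A31 moved from rank 22 to rank 16, at 3.42 and 6.06 CPM per kb.

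**Figure D4:**
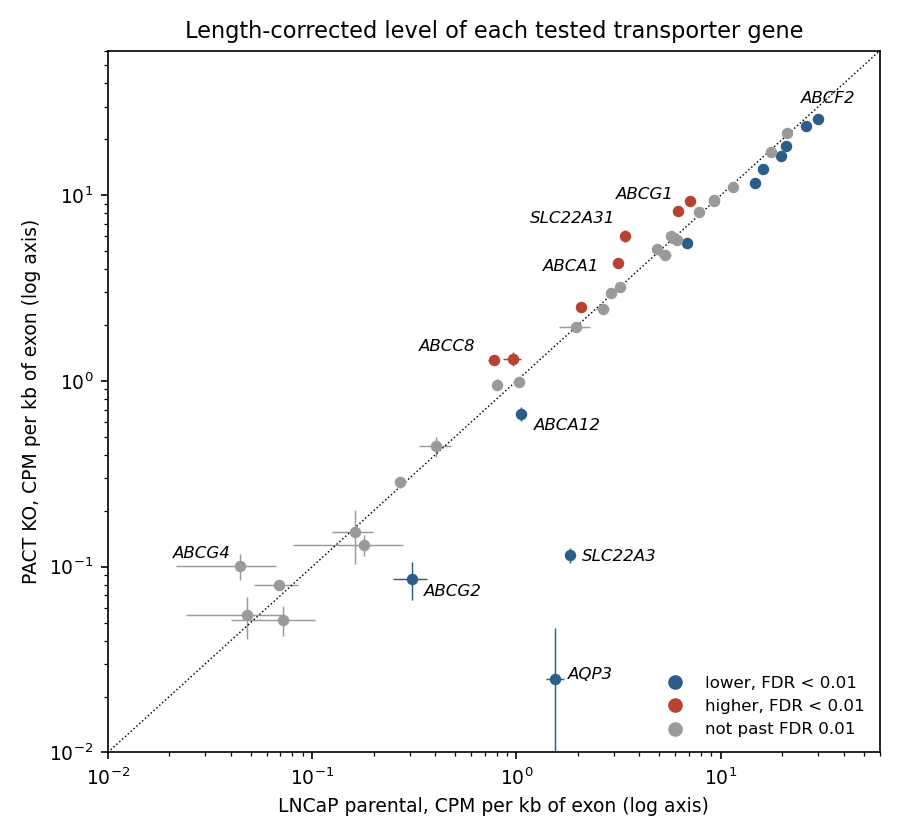
Level of 43 of the 45 tested members per kilobase of exon in LNCaP parental cells (horizontal) and PACT KO cells (vertical), both on log axes in CPM per kb, with SD bars (n = 3) and a dotted line of equality. Blue and red points passed an FDR of 0.01. The most abundant members, led by ABCF2 at 29.9 and 25.6 CPM per kb, stay near the line, and AQP3, SLC22A3 and ABCG2 fall below it.

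Genes that work with the members were listed for comparison. Among 16 partners of the members, 12 were tested and 5 (41.7%) were lower, where 18.8% of all genes tested were, among them GCN1, an activator of the kinase GCN2 on ribosomes (log2FC -0.25, SE 0.03), PELO, which acts with ABCE1 on stalled ribosomes (-0.26, SE 0.05), and MMACHC, which receives cobalamin after ABCD4 has acted (-0.22, SE 0.05). Of 19 transcription factors known to control transporter genes, 13 were tested and 4 (30.8%) were lower, beside the same 18.8%. AHR, a ligand-activated factor and known inducer of ABCG2, had 29, 31 and 31 counts in LNCaP parental cells versus 11, 7 and 4 in PACT KO cells (log2FC -2.04, SE 0.34). AHR reached the filter on low counts in 3 LNCaP parental libraries and 1 PACT KO library, so it was tested through its LNCaP parental level. Whether AHR bears on ABCG2 here was not tested. NR1H3, one of the oxysterol receptors known to induce ABCA1 and ABCG1, was lower, with a log2FC of -0.25 (SE 0.07, FDR = 0.00328), and SREBF2, a regulator of cholesterol synthesis, likewise, with -0.21 (SE 0.03). NR1H2, the other such receptor and named after its values were seen, was at 72.6 CPM in LNCaP parental cells versus 74.9 CPM in PACT KO cells, with a log2FC of 0.05 (FDR = 0.317), and did not pass. The call of NR1H3 was lost when LNCaP parental replicate 1 or 3 or PACT KO replicate 2 or 3 was left out, with FDR values of 0.0114 to 0.0199.

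Relatives and carriers of other families were mixed. TAP1 and TAP2, the ABC transporters that load peptides for antigen presentation, both fell, with log2FC values of -0.42 and -0.43 (SE 0.06 for each), and MIP, an aquaporin of the eye lens, did not pass (FDR = 0.132). Of 29 carriers of organic ions, nucleosides, peptides, bile acids and monocarboxylates, 14 were tested, 4 (28.6%) were lower and 3 (21.4%) higher, beside 18.8% and 15.3% of all genes tested. SLC29A1 and SLC29A2, the equilibrative nucleoside transporters, fell, with log2FC values of -0.67 and -0.56 (SE 0.05 and 0.06), and SLC29A1 was a downregulated DEG. SLC15A2, a peptide transporter, was an upregulated DEG at 1.34 (SE 0.19), from 1.21 to 3.09 CPM.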

How the data were processed

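The authors deposited raw counts, whole numbers of reads per NCBI Gene number, in 6 libraries of polyA RNA, 3 of LNCaP parental and 3 of PACT KO cells. Their processing notes name hg38, STAR 2.5.3a, StringTie 1.3.3 and featureCounts 1.5.3 without roles. The gene annotation and whether strand was used are not given in the sources used here. A row lacking any gene number, 0.0688% to 0.0708% of counts, was left out.

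Of 29806 gene numbers, 27540 (92.4%) were given a symbol from RefSeq (GRCh38.p14). Genes were kept by filterByExpr, libraries were scaled by TMM, and groups were compared by glmQLFit and glmQLFTest in edgeR 4.0.16 (R 4.3.3), 2-sided, with Benjamini-Hochberg adjustment over 14462 genes. A DEG had an FDR under 0.01 and at least 1.5-fold change, as in the study's methods. The standard error is the absolute log2 fold change over the square root of F. An exact permutation test of 3 against 3 cannot give a p under 0.1. On simulated counts, 100 of 100 genes changed by 1 on the log2 scale and 100 of 100 changed by 2 were recovered, of 14451 tested. Changes were planted only in genes above a floor of mean counts, with the same small spread for every gene. Recovery of weakly expressed genes was therefore not tested. DESeq2 1.42.0, limma-voom (limma 3.58.1), other scalings, filters and thresholds, the replicate number as a block and leaving out each library were the alternatives. Figures were drawn with matplotlib 3.10.9 in Python 3.11.15.

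Members and lists were chosen with earlier results of these data known. Genes named by rule are the DEGs, and in each family the 2 with the smallest p and the most abundant. Members at 3 counts or fewer in one group alone were also named. From each list of other genes, the 3 with the smallest p were taken. Further genes, among them ABCF1, SLCO2A1 and AQP7, were named outside this rule. Nothing states that dishes were independent cultures, so p-values measure the spread between these samples. Results for some members are not reported here.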

Additional observations from a re-analysis of the deposited data

How the results depend on the processing

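The number of members at an FDR under 0.01 ranged from 9 to 12 lower and 7 to 8 higher over the alternatives, and with each library left out in turn it was 12 lower and 7 higher. Downregulated DEGs remained 4 and upregulated DEGs 2 whichever library was left out. With at least 10 counts in every library there was 1 downregulated DEG, since AQP3, SLC22A3 and ABCG2 were then not tested. With a 2-fold threshold there were 0 upregulated DEGs, and with edgeR's test of a change beyond 1.5-fold also 0, beside 3 downregulated DEGs in each, so that SLC22A31, ABCC8 and ABCA12 lost their DEG calls. By limma-voom ABCG4 was also an upregulated DEG, which made 3. The log2 fold change of PRKRA was between -1.64 and -1.52 with each library left out. Members detected were 47 to 52 in LNCaP parental cells, versus 51 to 53 in PACT KO cells, with each library of the group left out, and 45 and 43 when more than 10 counts were asked. For the 24 members named by the rule, the side of the FDR threshold was kept in all 309 values under the alternatives that could test them, and AQP1, AQP11 and SLC22A23, which did not pass, changed sign in some of them by less than their SE. Total-count scaling moved the median of all genes tested to 0.03 and gave 2286 lower and 2731 higher genes, against 2726 and 2214.

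With the replicate number as a block, 12 members were lower and 7 higher, with 4 downregulated and 2 upregulated DEGs. Over all genes the block gave 374 downregulated and 426 upregulated DEGs, against 383 and 444 without it. Deviations from the group means correlated at -0.105, 0.0115 and -0.0851 between libraries of the same number, and at -0.119 to 0.176 between others. No pairing by number was seen, but with 3 libraries in each group this check cannot exclude one. The precision of weakly expressed members such as AQP3, ABCG2 and ABCG4 is limited by their counts.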
